A study of Mus musculus with 9 samples.

Results

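The 78 mitochondrial ribosomal protein genes described here are all rows of the deposited count table whose symbol begins with Mrpl or Mrps followed by a digit, out of 16231 genes in that table. By symbol, 49 encode proteins of the large subunit (Mrpl) and 29 proteins of the small subunit (Mrps). The 9 libraries are bulk RNA-seq of mouse tissue labelled as retina. There are 3 young libraries, 3 aged libraries and 3 aged libraries with EGCG treatment (epigallocatechin gallate, a catechin of green tea), here called treated. No genotype, strain, age in months, dose or duration was found in the labels. Nothing says that each library is its own animal, so p-values here refer to the spread of libraries, part or all of which may be technical.

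Mitochondria carry their own ribosomes, which translate the few proteins encoded in mitochondrial DNA, all of them parts of the respiratory chain and ATP synthase. The RNA of these ribosomes comes from mitochondrial DNA, while every protein of them is encoded in the nucleus, made in the cytosol and imported. Some of these proteins descend from bacterial ribosomal proteins and others exist only in mitochondria. The number of mitochondria, and with it the demand for these proteins, is high in tissues with a large respiratory load such as retina and liver.

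Each library held 34240500 to 39922044 counts, and all 78 genes were among the 12747 genes that passed a filter on low counts and were tested. The labelled tissue did not match its defining markers: 6 of 12 rod and cone genes were listed in the table, 5 of them under 1 CPM in every library, and Rpe65, Rlbp1 and Tyr, which mark the retinal pigment epithelium, were not listed. All 10 hepatocyte markers were present with a summed level of 132900 to 135400 CPM, most of it from Alb (for markers, CPM are counts scaled to the library total). Single hepatocyte markers did move: 9 of the 10 were lower with age (median log2 fold change -0.22), and in treated against young libraries 7 were lower and 2 higher (median -0.52). In treated against aged libraries 4 were higher and 5 lower (median -0.15). Of the 8 markers of the pigment epithelium 5 were listed, 2 of them under 1 CPM throughout, and of 9 markers of Muller glia and ganglion cells 8 were listed, 4 of them under 1 CPM throughout. The summed level of 6 macrophage markers was 72.7 to 74.6 CPM in young, 434 to 440 CPM in aged and 162 to 168 CPM in treated libraries, and that of 6 endothelial and fibroblast markers was 92.8 to 104, 353 to 368 and 155 to 161 CPM. The macrophage, endothelial and fibroblast levels moved with the groups in the reverse direction to most of the genes below, and the part of all these markers in the results was not tested. In bulk tissue, fewer cells of a type cannot be told apart from less RNA per cell.

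The summed level of the 78 genes was lower in the aged libraries than in both other groups. From here on CPM values carry TMM factors, which correct for differences in composition. The sum was 2289, 2328 and 2343 CPM in the young libraries, 1787, 1801 and 1830 CPM in the aged libraries and 2251, 2299 and 2337 CPM in the treated libraries. The aged libraries lay below all others without overlap, and the young and treated libraries overlapped. As a share of all counts, which uses no TMM factor, the 78 genes took 0.213% ± 0.00176 (SD, n = 3) of the young, 0.190% ± 0.00171 (SD, n = 3) of the aged and 0.238% ± 0.00244 (SD, n = 3) of the treated libraries. On that scale the treated libraries were the highest of the 3 groups and did not overlap with the young ones. The order of young and treated libraries therefore depended on the scaling, whereas the aged libraries were lowest on both scales.

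**Figure D1:**
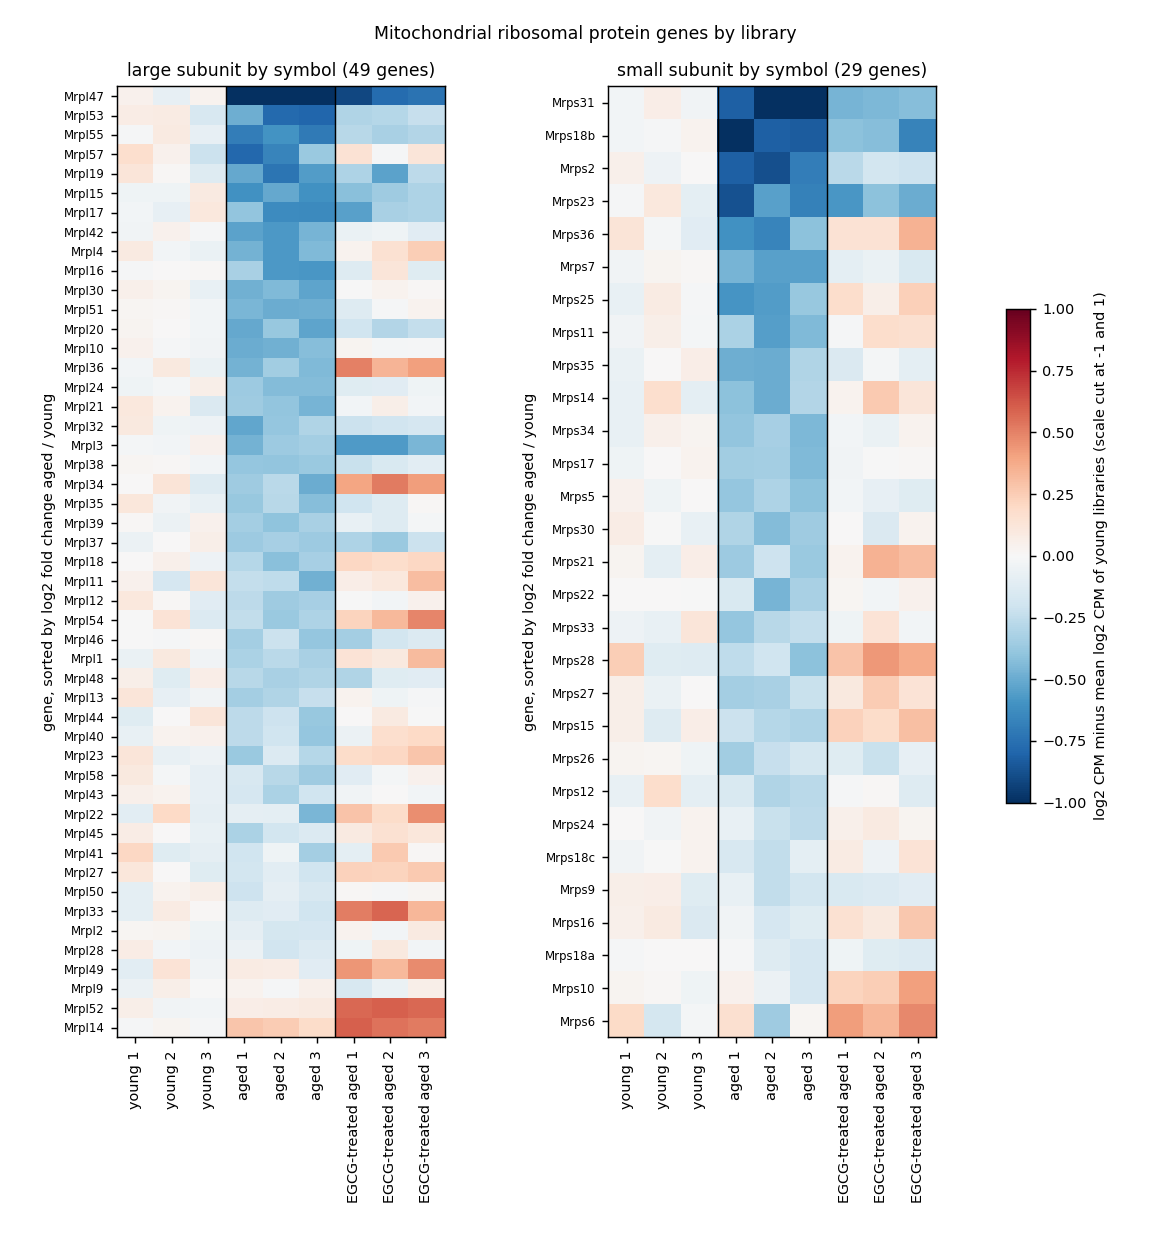
Each row is a gene and each column a library, with colour giving log2 CPM minus the gene's mean over the young libraries, cut at -1 and 1. Blue fills the aged columns in both panels, with Mrpl14 and Mrpl52 at the foot of the left panel as the only genes above the young libraries in all 3 aged ones.

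Levels between genes were compared on the FPKM scale, which divides by gene length. The highest mean over the 9 libraries belonged to Mrpl12, a subunit of the stalk that binds translation factors, with 97.5 FPKM. It was followed by Mrpl52 with 65.9, Mrpl42 with 55.1, Mrps21 with 53.8 and Mrpl38 with 50.7 FPKM. Mrpl12 led in each group, but the order behind it differed between groups. In young libraries Mrpl42 (57.5 FPKM) and Mrpl38 (52.6) stood above Mrpl52 (50.6), and in treated libraries Mrpl52 (85.8) and Mrps21 (66.0) stood above Mrpl42 (61.9). The lowest were Mrps25 with 1.47, Mrpl3 with 2.08 and Mrpl19 with 2.31 FPKM. The deposited gene lengths of Mrps25, Mrpl3 and Mrpl19, 6076, 8707 and 5016 bp, were also among the longer ones of the 78 genes.

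The comparison of aged with young libraries asks what differed with age without treatment. Of the 78 genes 65 were lower in aged libraries, 1 was higher and 12 did not pass the test (edgeR quasi-likelihood, Benjamini-Hochberg adjusted p under 0.05). Among all 12747 tested genes 36.1% were lower and 33.4% higher, 69.5% in all. The median log2 fold change of the 78 genes was -0.33, beside -0.01 over all tested genes. In 66 of the 78 genes all 3 aged libraries lay below all 3 young ones, an arrangement found for 37% of tested genes, and in 2 genes all 3 lay above, found for 34.5%.

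The gene with the largest fall was Mrpl47, whose product lies at the exit of the tunnel through which the nascent chain leaves the ribosome. It was measured at 13.4, 12.3 and 13.3 CPM in young libraries and at 5.86, 5.56 and 5.79 CPM in aged ones. The 2 groups were far apart relative to their spread, with a log2 fold change of -1.18 ± 0.11 (SE, edgeR adjusted p = 1.21e-12). The gene lies at chr3:32725397-32737605 on the minus strand (GENCODE M21 on GRCm38) and its exons overlap those of Actl6a and Ndufb5 on the opposite strand. Those neighbours changed less, by -0.32 and -0.42.

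Next came 4 genes of the small subunit. Mrps31, a mitochondria-specific protein of the head of the small subunit (chr8:22411361-22429665, plus strand), fell from 39.9, 42.7 and 39.9 CPM in young to 23.2, 20.2 and 20.4 CPM in aged libraries, a log2 fold change of -0.94 ± 0.06 (SE, edgeR adjusted p = 3.08e-17). Mrps18b (chr17:35910379-35916389, minus strand) had 47.7, 48.2 and 49.8 CPM in young and 23.5, 27.6 and 27.3 CPM in aged libraries, with a log2 fold change of -0.89. Mrps2 (chr2:28468066-28471178, plus strand), a head protein with a bacterial homologue, had 56.1, 52.5 and 54.4 CPM in young and 30.7, 29.6 and 33.6 CPM in aged libraries, with a log2 fold change of -0.79. Mrps23 fell by 0.69 on the log2 scale. In each of these genes the lowest young library was above the highest aged one by more than the range within either group.

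Mrpl14 was the only gene that passed as higher with age. Its product sits at the face of the large subunit that meets the small one and is the docking site of a factor that keeps the subunits apart during assembly. It was measured at 32.2, 33.1 and 32.3 CPM in young and 39.3, 38.8 and 37.0 CPM in aged libraries, a log2 fold change of 0.24 ± 0.05 (SE, edgeR adjusted p = 0.00017). The groups did not overlap, but its counts have a limit. Its deposited length was 7525 bp, while its GENCODE coding transcript has 645 bp, and its exons overlap those of Tmem63b on the opposite strand, which itself rose by 0.39. No source says whether the counting used strand, and the part of Tmem63b reads in the value of Mrpl14 was not tested.

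**Figure D2:**
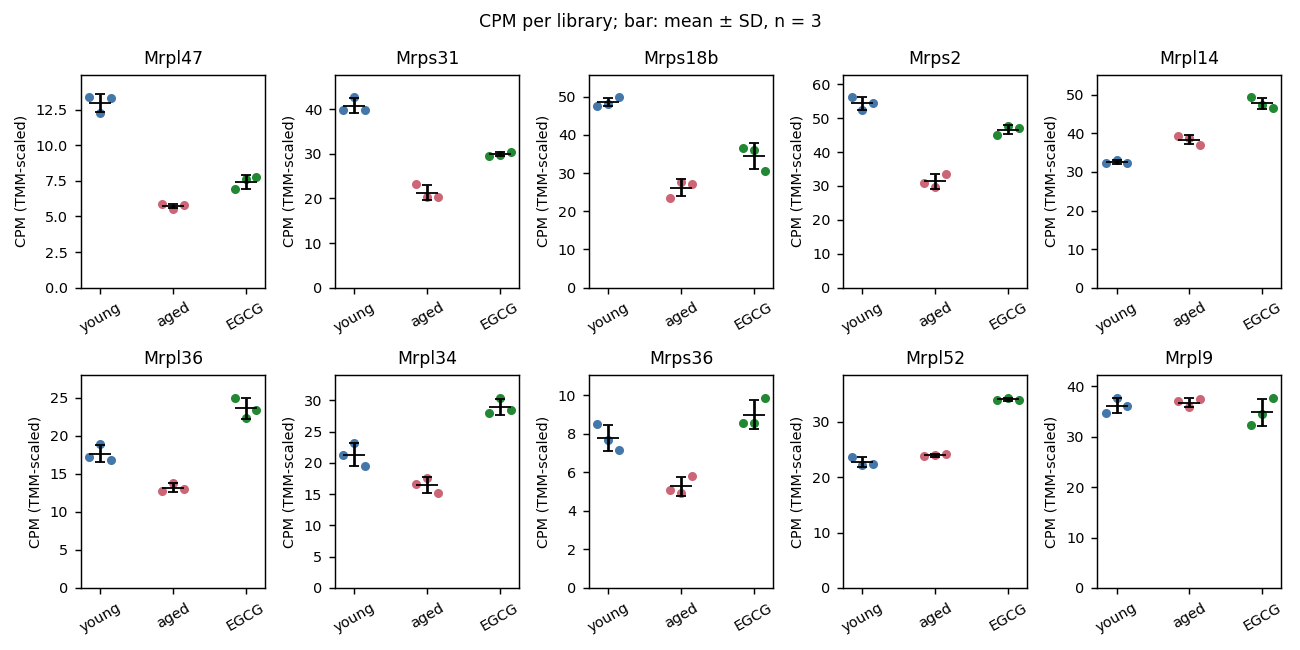
Points are TMM-scaled CPM of single libraries of 10 genes, with the mean and SD of 3 libraries per group, and EGCG stands for EGCG-treated aged mice. In Mrpl47, Mrps31, Mrps18b and Mrps2 the treated libraries lie between the aged and the young ones, in Mrpl36, Mrpl34, Mrpl14 and Mrpl52 they lie above both, and in Mrpl9 all 3 groups overlap.

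The 12 genes that did not pass in this comparison were Mrpl9, Mrpl28, Mrpl33, Mrpl41, Mrpl49, Mrpl52, Mrps6, Mrps9, Mrps10, Mrps16, Mrps18a and Mrps18c. Mrpl9, a large-subunit protein with a bacterial homologue, had 34.8, 37.7 and 36.0 CPM in young, 37.0, 35.8 and 37.5 CPM in aged and 32.4, 34.6 and 37.7 CPM in treated libraries. Its groups overlapped in all 3 comparisons, and it was one of 4 genes, with Mrpl28, Mrps9 and Mrps18a, that passed in none of them. Mrpl28 stood at -0.13, 0.14 and 0.01 and Mrps9 at -0.17, 0.03 and -0.13 for aged against young, treated against aged and treated against young.

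Setting treated beside untreated aged libraries asks what differed with EGCG. Here 69 of the 78 genes were higher in treated libraries, beside 31.8% of all tested genes, and 0 were lower by edgeR, beside 31.5% (63.3% of tested genes passed in either direction). At an unadjusted p under 0.05 edgeR gave 70 higher and 0 lower, but the share of all tested genes at that threshold was not taken. DESeq2 called 64 higher and 0 lower, beside 25.9% and 27.7% of 14656 genes. The median log2 fold change was 0.36, beside 0.01 over all tested genes. In 66 genes all 3 treated libraries lay above all 3 aged ones, an arrangement of 33.6% of tested genes. This comparison and the previous one share the aged libraries, so their values are not independent.

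The largest increases were in Mrpl36 and Mrpl34, which are short genes of the large subunit. Mrpl36 encodes a small zinc-binding protein with a bacterial homologue (chr13:73328513-73332178, plus strand), and was measured at 12.7, 13.9 and 13.0 CPM in aged and at 25.03, 22.3 and 23.5 CPM in treated libraries. The groups were separated by a log2 fold change of 0.84 ± 0.08 (SE, edgeR adjusted p = 2.32e-12). Its exons overlap those of Ndufs6 on the opposite strand, which rose by 0.35. Mrpl34 (chr8:71464959-71465747, plus strand) had 16.7, 17.7 and 15.1 CPM in aged and 28.0, 30.4 and 28.4 CPM in treated libraries, a log2 fold change of 0.81 ± 0.07 (SE, edgeR adjusted p = 1.02e-12). Both genes were also higher in the treated than in the young libraries, which had 16.8 to 18.9 CPM of Mrpl36 and 19.5 to 23.3 CPM of Mrpl34.

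Mrps36 followed with 5.09, 4.90 and 5.82 CPM in aged and 8.56, 8.55 and 9.87 CPM in treated libraries, a log2 fold change of 0.77. Its product carries a ribosomal name but is known as a subunit of the 2-oxoglutarate dehydrogenase complex of the citric acid cycle. Mrpl57 rose by 0.68, Mrps25 by 0.67 and Mrpl54, a protein at the base of the stalk, by 0.66. The 9 genes that did not pass were Mrpl3, Mrpl9, Mrpl28, Mrpl37, Mrpl46, Mrpl48, Mrps9, Mrps18a and Mrps26. Only Mrpl3 and Mrpl9 among the 78 had a negative log2 fold change, of -0.14 and -0.08.

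The comparison of treated with young libraries asks what still differed from youth after treatment. With TMM factors 19 of 78 genes were higher and 18 lower in treated libraries, beside 30.8% and 32.1% of all tested genes, so the share that passed in either direction was below the 62.9% of all tested genes. The median log2 fold change was 0.00. In 18 genes the treated libraries lay above all young ones and in 20 below, beside 32.1% and 33.1% of tested genes.

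The genes furthest above young were Mrpl52 with 0.58, Mrpl14 with 0.56, Mrpl33 with 0.48, Mrpl34 with 0.44, Mrpl36 with 0.42 and Mrpl49 with 0.41. Mrpl52 (chr14:54426909-54429756, plus strand) had 23.7, 22.2 and 22.3 CPM in young, 23.8, 24.0 and 24.3 CPM in aged and 33.9, 34.4 and 33.9 CPM in treated libraries. Its treated libraries stood apart from the other 6, with an SE of 0.06 on the log2 fold change against young (edgeR adjusted p = 5.99e-11). Mrpl33 rose from 9.68, 10.97 and 10.4 CPM in young to 14.8, 15.5 and 13.1 CPM in treated libraries.

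The genes furthest below young were Mrpl47 with -0.81, Mrpl3 with -0.53, Mrps23 with -0.50, Mrps18b with -0.49, Mrps31 with -0.45 and Mrpl17 with -0.39. Mrpl47 had 6.90, 7.60 and 7.78 CPM in treated libraries, above all aged and below all young ones. Mrpl3, whose product reaches towards the site where peptide bonds are formed, had 22.1, 21.9 and 23.0 CPM in young, 16.1, 17.3 and 17.7 CPM in aged and 15.05, 15.1 and 16.3 CPM in treated libraries. Both groups of aged mice lay below the young libraries, and they overlapped each other.

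How far the 78 genes differed from young depended on the scaling. The TMM factors of the young libraries were 0.911 to 0.920 and those of the others 1.027 to 1.055. With library totals only, the median log2 fold change of treated against young was 0.18 with 46 genes higher and 7 lower, and the median of all tested genes moved to 0.20. For aged against young it was -0.14 with 4 higher and 40 lower, and the median of all tested genes moved to 0.18. Taken relative to the median of all tested genes, the 78 genes stood at -0.32 for aged against young, 0.35 for treated against aged and -0.015 for treated against young, both with library totals and with TMM. With upper-quartile factors 44 were higher and 8 lower in treated than in young libraries, and relative to all tested genes the median was again -0.015. These settings differ by a single factor per library, so equal relative values follow from the computation and do not show stability. Relative values of treated against young were 0.081 and 0.0081 on FPKM with pseudocounts of 1 and 0.1. In the 2 length refits described below, with deposited and GENCODE lengths, they were -0.12 and -0.067.

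The share of all genes that passed also differed between these settings. The DESeq2 shares are over 14656 genes, or 14342 for treated against young, and the FPKM settings use limma, so in both the method changed together with the scaling. For aged against young it was 39.7% higher and 28.8% lower with upper-quartile factors, 46.5% and 22.6% with library totals, and 30.3% and 29.7% with DESeq2, which called 1 of the 78 genes higher and 62 lower. With limma on FPKM it was 44.6% and 22.1% (pseudocount 1) or 45.4% and 22.1% (pseudocount 0.1), beside 4 genes higher and 37 lower of the 78 with either. For treated against aged it was 36.4% and 27.6% with upper-quartile factors, 30.4% and 32.6% with library totals, 25.9% and 27.7% with DESeq2, and 30.1% and 32.1% or 29.6% and 31.6% on FPKM, while 64 to 71 of the 78 genes were higher in these settings. For treated against young it was 43% and 22.6% with upper-quartile factors, 44.2% and 22% with library totals and 27.5% and 27.9% with DESeq2, which called 18 of the 78 genes higher and 15 lower. On FPKM it was 42.2% and 20.8% or 43% and 21%.

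**Figure D3:**
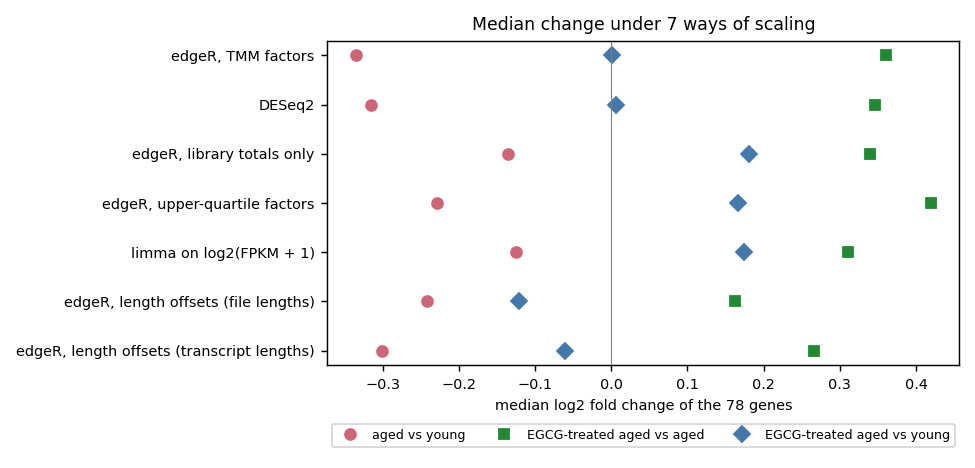
The x axis is the median log2 fold change of the 78 genes and each row is a way of scaling the counts or FPKM values. Circles stay below 0 and squares above 0 in all 7 rows, while the diamonds of EGCG-treated aged against young run from -0.12 with offsets for gene length to 0.18 with library totals.

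The 2 subunits were set side by side. In aged against young libraries 42 of 49 Mrpl genes and 23 of 29 Mrps genes were lower, with medians of -0.34 and -0.31. In treated against aged libraries 43 of 49 and 26 of 29 were higher, with medians of 0.33 and 0.37. In treated against young libraries 13 Mrpl genes were higher and 13 lower, and 6 Mrps genes were higher and 5 lower. The difference between the subunits' medians (large minus small) was -0.03 with age and -0.04 with treatment, and both signs turned under other settings given below. Another measure, the mean log2 CPM of Mrpl genes minus that of Mrps genes, had an SD of 0.02 between libraries of a group. The group means of log2 CPM for Mrpl and Mrps genes were 4.79 and 4.54 in young, 4.45 and 4.16 in aged, and 4.80 and 4.54 in treated libraries. The ratio of summed Mrpl to summed Mrps CPM was 1.94 to 1.99 in young, 2.04 to 2.09 in aged and 1.99 to 2.05 in treated libraries. On the FPKM scale it was 1.67 to 1.75, 1.77 to 1.78 and 1.77 to 1.78. On both scales the young libraries had the lowest ratio and did not overlap with the aged ones. The ratio was thus higher with age, whereas the difference of medians with age was negative.

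Not every symbol names the subunit in which the protein sits. In structures of the mammalian particle the products of Mrps18a and Mrps30 are part of the large subunit. For a count by structure these were moved, and Mrps36, whose product is known from another complex as given above, was left out. Counted in this way, 43 of 51 large-subunit genes and 21 of 26 small-subunit genes were lower with age, with the same medians of -0.34 and -0.31. The 3 S18 paralogs are given side by side, with no test of a difference between them. Mrps18a (chr17:46110986-46128910, plus strand) had 25.3 to 25.6 CPM in young, 22.6 to 25.3 in aged and 23.2 to 24.7 in treated libraries and passed in no comparison, with log2 fold changes of -0.10, 0.00 and -0.10. Mrps18b, one of the small-subunit paralogs, fell with age as described, and Mrps18c passed only between treated and aged libraries, with 0.23 (edgeR adjusted p = 0.0248). That call was lost without aged library 2, treated library 1 or treated library 3 (0.19, 0.22 and 0.19), and the value turned to -0.19 in the length refit described below. Mrps30 fell by 0.36 with age and rose by 0.33 with treatment.

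Functional regions of the particle were described from lists of their proteins. All 5 genes of the L7/L12 stalk, the flexible arm that recruits translation factors, were lower with age and higher with treatment, with medians of -0.33 and 0.47. Mrpl53 had the largest fall there, from 25.3, 25.5 and 21.6 CPM in young to 17.2, 14.0 and 13.9 CPM in aged libraries, and Mrpl10 fell by 0.47. All 7 genes of the tunnel exit were lower with age and higher with treatment, with medians of -0.29 and 0.33. Among them Mrpl22 rose by 0.52 and Mrpl23 by 0.49 with treatment, while Mrpl17 rose by 0.16 (edgeR adjusted p = 0.0273).

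Of the 8 genes of the central protuberance, which in mitochondria has taken in proteins that have no bacterial counterpart, 8 were lower with age and 6 higher with treatment, with medians of -0.31 and 0.30. Mrpl55 fell most with age, by 0.67, and Mrpl18 rose most with treatment, by 0.54. Of 8 genes of the head of the small subunit 6 were lower with age and 7 higher with treatment, with medians of -0.41 and 0.38. These lists are small, and 83.3% of all 78 genes were lower with age and 88.5% higher with treatment, so the counts of the lists are near those of the whole group. The same holds for the origin of the proteins: with age 38 of 48 genes with a bacterial homologue and 26 of 29 mitochondria-specific genes were lower, and with treatment 43 and 25 were higher.

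Gene length bears on these comparisons, since the 78 genes are short and fold changes followed length over all tested genes. Lengths were taken from counts over FPKM. The 78 genes had a median of 1412.5 bp (412 to 8707 bp), beside 3500 bp for tested genes. Over all 12747 tested genes the Spearman coefficient of log2 fold change with length was -0.30 for treated against aged, 0.14 for aged against young and -0.12 for treated against young libraries, and over the 78 genes it was -0.14, -0.20 and -0.23. These coefficients are across genes, which are not independent replicates.

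Of the 78 genes 37 fell in the shortest decile of tested genes (206 to 1357 bp). With treatment 33 of these 37 were higher with a median of 0.37, while of the 1238 other genes of that length 59.3% were higher with a median of 0.31. With age 30 of the 37 were lower with a median of -0.30, while of the others 46.9% were lower with a median of -0.16. In the next decile (1359 to 1897 bp) 13 of 15 were higher with treatment with a median of 0.40, beside 44.3% and 0.17 for the others. In the one after that (1897 to 2406 bp) 8 of 9 were higher with a median of 0.41, beside 39.1% and 0.11. The gap to genes of like length was thus small in the shortest decile for the treatment comparison and wider among longer genes.

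**Figure D4:**
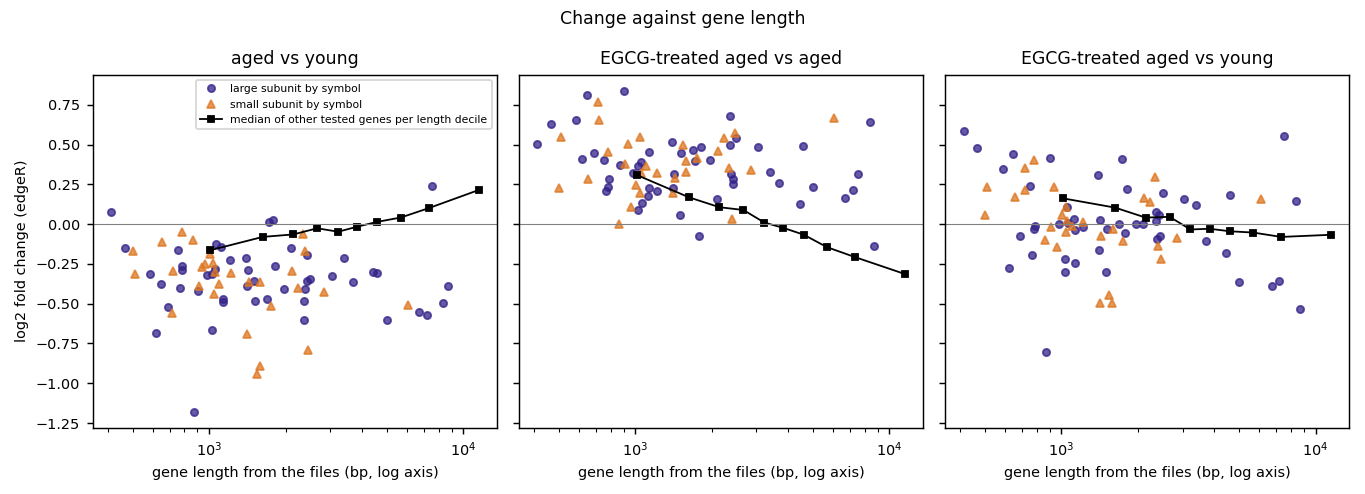
Points are the 78 genes with log2 fold change (edgeR, TMM) on the y axis and gene length in bp on a log x axis, and the black line joins the medians of all other tested genes in each decile of length. In the middle panel the line falls from 0.31 to -0.31 from short to long genes and the points near its left end lie around it, while to the right most lie above it.

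A refit in which a smooth trend of each library with gene length was removed gave smaller changes. For treated against aged libraries 38 genes were higher and 6 lower with a median of 0.16, beside a median of 0.36 before and of -0.01 for all tested genes, of which 28.8% were higher and 29.9% lower. Of 43 genes under 1500 bp 9 were higher and 5 lower after this step, and of 35 longer genes 29 were higher and 1 lower. For aged against young libraries 48 were lower and 2 higher with a median of -0.24, beside 34.9% and 33.5% of all tested genes. For treated against young libraries 35 were lower and 10 higher with a median of -0.12, beside 32.8% and 30% of all tested genes. Among the genes named above, Mrpl36 kept a rise of 0.52 and Mrpl34 of 0.44 with treatment, while Mrpl52 came to 0.06, Mrpl33 to 0.21, Mrpl47 to 0.05 and Mrpl53 to 0.03, none of which passed with these lengths. Mrps18a, which passed in no comparison before, was lower in treated than in aged libraries in this refit, at -0.32 (edgeR adjusted p = 4.67e-05). For aged against young the 2 higher genes in this refit were Mrpl14, at 0.12 (edgeR adjusted p = 0.041), and Mrpl52, at 0.31 (edgeR adjusted p = 4.48e-05).

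The deposited lengths are not those of the coding transcripts in every gene. For 38 of the 78 genes the deposited length was within 25% of the median GENCODE M21 coding transcript, and for 9 it was over 3 times as long. Examples are Mrpl14 with 7525 against 645 bp, Mrpl4 with 8356 against 815 bp and Mrpl17 with 6712 against 743.5 bp, and Mrpl47 differed the other way with 872 against 3364 bp. With the GENCODE lengths in the same refit, chosen after seeing the data, 58 genes were higher and 2 lower with treatment (median 0.27), 61 lower and 1 higher with age (median -0.30), and 13 higher and 21 lower in treated than in young libraries (median -0.06). Mrpl52 (0.34), Mrpl33 (0.46), Mrpl47 (0.48) and Mrpl53 (0.24) all passed again with treatment in this refit, and Mrps18a was lower at -0.16 (edgeR adjusted p = 0.0345). With age Mrpl14 was higher at 0.31, and Mrpl52 stood at 0.14 and did not pass (edgeR adjusted p = 0.0555). Of the 12435 tested genes with a GENCODE length 30.5% were higher and 30.3% lower with treatment, 33.5% and 35.8% with age, and 30% and 32.8% in treated against young libraries. The medians moved less with these lengths than with the deposited ones.

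Exons of 33 of the 78 genes overlap those of another gene, 28 of them on the opposite strand. Among the genes with no such overlap 38 of 45 were lower with age and 41 of 45 higher with treatment, with medians of -0.35 and 0.35, close to those of all 78. Mrpl46 and Mrps11 overlap each other on opposite strands. Mrpl46 had log2 fold changes of -0.31 with age and 0.09 with treatment, and Mrps11 had -0.44 and 0.54. Mrps6 shares exons with Slc5a3 on the same strand, and Slc5a3 moved by 2.11 with age and -1.37 with treatment, while Mrps6 stood at -0.05 and 0.45. Mrpl49 overlaps Syvn1 on the opposite strand, which fell by 0.73 with age and stood at 0.00 with treatment.

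Many nuclear genes for mitochondrial proteins have promoters that run in both directions. Upstream of 18 of the 78 genes a coding gene starts on the other strand within 1000 bp. Pairs on opposite strands whose first parts overlap, such as Mrpl46 and Mrps11, were not counted. Partners did not always move with these 18 genes. Ppp1r10, which starts 45 bp from Mrps18b, fell by 2.25 on the log2 scale with age (edgeR adjusted p = 1.61e-35) and rose by 0.16 with treatment, beside -0.89 and 0.40 for Mrps18b. Ptcd2, 81 bp from Mrps27, fell by 0.54 with age and rose by 0.62 with treatment. Fau, 59 bp from Mrpl49, fell by 0.13 with age while Mrpl49 stood at 0.01. Sars2, the mitochondrial seryl-tRNA synthetase gene 172 bp from Mrps12, passed in no comparison.

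Motifs known from promoters of such genes were counted in RefSeq promoter windows (250 bases before to 50 after the start, GRCm38.p6), which matched 69 of the 78 genes, on both strands. The ETS core CCGGAAG, as bound by the factor GABP (also named NRF2), was in 26 of 69 windows (37.7%), beside 19.4% of 10201 tested genes with a window. The YY1 motif AAGATGGCG was in 8 (11.6%), beside 3.46%, and the NRF1 motif in 3 (4.35%), beside 2.25%, and no 2 matches overlapped. Of the genes with the largest falls with age, Mrpl47, Mrps31 and Mrps2 had no match listed, and the only match of Mrps18b lay after the start. The stretches below show matches in capitals for 6 genes, chosen among those with a match before the start. They set genes with large changes beside genes that passed in no comparison.
Mrpl34, ETS core, chr8:71464878-71464907, plus strand: aactacagctcCCGGAAGgccccgcggcaa
Mrpl36, YY1 motif on the opposite strand, chr13:73330968-73330997, plus strand: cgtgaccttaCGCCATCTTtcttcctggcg
Mrpl53, ETS core on the opposite strand, chr6:83109078-83109107, plus strand: ccccagtgctactcCTTCCGGggtggaggt
Mrpl3, ETS core, chr9:105053238-105053267, plus strand: tgagaaacggaCCGGAAGtggcccggctgt
Mrps18a, ETS core, chr17:46110967-46110996, plus strand: acacccctgctCCGGAAGcggaagtgcaca
Mrpl9, NRF1 motif, chr3:94443298-94443327, plus strand: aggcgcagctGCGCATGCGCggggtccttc

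The matches begin 37, 31, 16, 19, 26 and 28 bases before the start, in that order. The same ETS core stood before Mrpl34, which rose by 0.81 with treatment, before Mrpl3, which did not pass there, and before Mrps18a, which passed in no comparison without the length refits. Over all genes with an ETS match the median was -0.30 with age and 0.36 with treatment, and over the 34 genes with none of the 3 motifs it was -0.32 and 0.37. A match describes the letters of the window and does not show that a factor was bound.

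Among known regulators of these promoters and their co-activators, 1 of 10 listed genes was higher and 8 were lower in treated than in aged libraries, with a median of -0.41, beside 31.8% higher and 31.5% lower of all tested genes. With age 2 were higher and 4 lower. These are long genes, with a median of 6365.5 bp, and long genes as a whole were lower with treatment. The length refit gave 2 higher and 5 lower with a median of -0.17, and with GENCODE lengths 1 higher and 5 lower with a median of -0.30. Nrf1 had 10.3 ± 1.32, 11.6 ± 0.95 and 8.57 ± 0.20 CPM (SD, n = 3) in young, aged and treated libraries and fell by 0.43 with treatment. Gabpa fell by 0.33 with age and by 0.22 with treatment. Ppargc1a, the co-activator PGC-1alpha, rose by 1.58 with age and fell by 0.96 with treatment, and Pprc1, a related co-activator, fell in both comparisons, by 1.15 and 0.91. Esrra was the one that rose with treatment, by 0.32, after a fall of 0.75 with age.

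The other genes of mitochondrial protein synthesis were taken from lists. Their counts stand beside 33.4% higher and 36.1% lower of all tested genes with age, and 31.8% higher and 31.5% lower with treatment. Of 5 mitoribosome proteins with other symbols, 5 were lower with age (median -0.24) and 4 higher with treatment (median 0.29). Among them Gadd45gip1 had 27.4 ± 2.24, 24.2 ± 1.48 and 39.9 ± 3.48 CPM (SD, n = 3) and rose by 0.72 with treatment. Of 26 tested assembly factors 17 were lower and 1 higher with age (median -0.31), and 16 were higher with treatment (median 0.32). Mrm3, a methyltransferase of the large ribosomal RNA, had the smallest p of the list with age, falling by 1.69 from 15.3 ± 0.63 to 4.72 ± 0.23 CPM (SD, n = 3), and rose by 0.63 with treatment. Mrm2, another methyltransferase of that RNA, rose by 1.17 with treatment.

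Of 14 tested translation factors 11 were lower with age (median -0.43), and 9 were higher and 1 lower with treatment (median 0.24). Tufm, the elongation factor that delivers charged tRNA, fell by 0.42 with age and stood at -0.00 with treatment, with 124.5 ± 3.93, 92.9 ± 2.04 and 92.6 ± 4.55 CPM (SD, n = 3) in young, aged and treated libraries. Gfm1, the translocation factor, fell by 0.54 and rose by 0.11. Of 20 aminoacyl-tRNA synthetase genes 11 were lower and 1 higher with age (median -0.27), and 14 were higher with treatment (median 0.32). Rars2 fell by 1.21 and rose by 0.87.

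Of 18 tested genes for synthesis of mitochondrial DNA and RNA 13 were lower and 1 higher with age (median -0.42), and 9 were higher and 1 lower with treatment (median 0.27). Lrpprc, which stabilises mitochondrial mRNA, had 192.6 ± 2.82, 108.1 ± 2.76 and 105.8 ± 2.61 CPM (SD, n = 3) and so fell by 0.83 with age and did not pass with treatment. Of 12 mitochondrial chaperones and proteases 10 were lower and 1 higher with age (median -0.26), or 83.3% lower beside 36.1% of all tested genes. With treatment 4 were higher and 4 lower (median 0.01), shares near those of all tested genes in that comparison. Hspd1, the chaperone HSP60, fell by 0.30 with age and by 0.42 with treatment.

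The products of mitochondrial translation work together with nuclear-encoded subunits of the respiratory chain. Of 83 tested genes for such subunits 78 were lower and 1 higher with age (median -0.42), and 71 were higher and 3 lower with treatment (median 0.41). After removal of the length trend 35 were higher and 16 lower with treatment with a median of 0.05, beside 0.16 for the 78 genes. With GENCODE lengths 60 were higher and 7 lower with a median of 0.24, beside 0.27 for the 78 genes, so the gap was seen with the deposited lengths and was small with the others. Of 80 tested cytosolic ribosomal protein genes, which are short too, 34 were lower and 3 higher with age (median -0.08), and 64 were higher and 3 lower with treatment (median 0.20). After removal of the length trend the median with treatment was -0.14, with 8 higher and 47 lower, and with age it was 0.08, with 39 higher and 6 lower. With GENCODE lengths it was 0.03 with treatment, with 32 higher and 14 lower, and -0.01 with age, with 10 higher and 18 lower. The direction of this list thus depended on the lengths used. Whether these lists differ from the 78 genes was not tested.

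**Figure D5:**
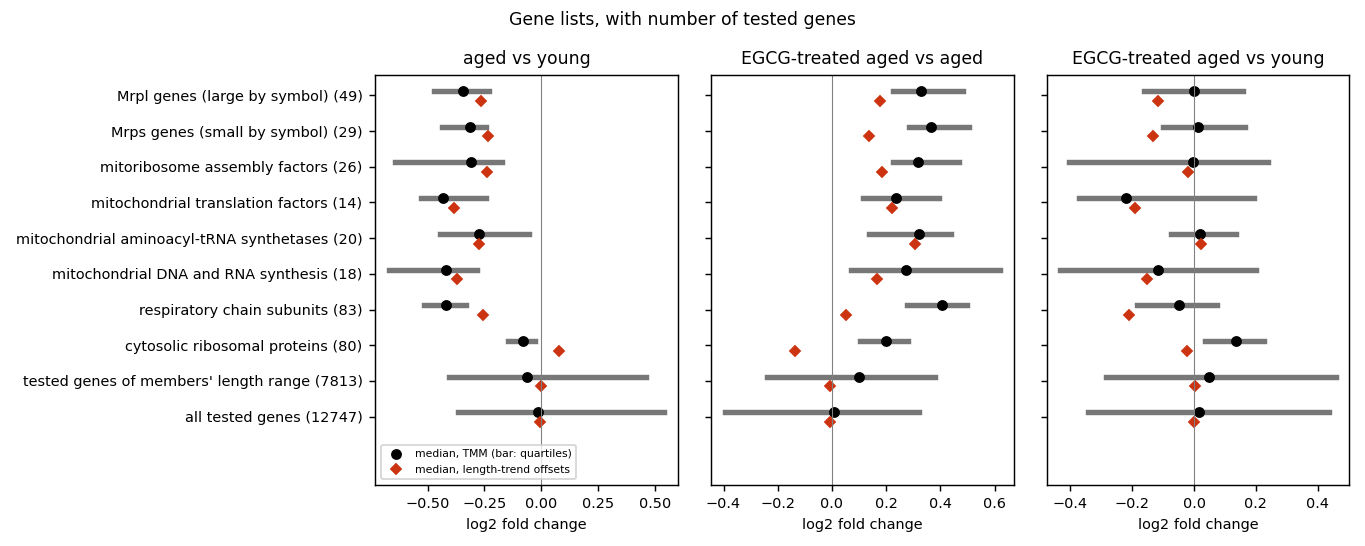
Black points are medians of log2 fold changes per gene list with bars from the lower to the upper quartile, red diamonds are the medians after removal of the trend with the deposited gene length, and the number of tested genes is in parentheses. In the middle panel the diamonds of respiratory chain subunits and cytosolic ribosomal proteins lie at 0.05 and -0.14, while those of both mitoribosomal subunits lie at 0.18 and 0.14, and with GENCODE lengths, not drawn, these medians were 0.24, 0.03, 0.24 and 0.29.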

How the data were processed

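The authors deposited raw counts per gene symbol and FPKM values of the same 16231 genes, per the file headers. Builds GRCm38 and mm10 are named in the submitters' processing notes. No aligner, counter or annotation was found in the labels or headers. Libraries were made with a SMARTER mRNA-seq kit, per the labels' protocols.

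Counts were tested with edgeR 4.0.16 (R 4.3.3), with TMM factors, a filterByExpr minimum count of 10 and quasi-likelihood fits of all 9 libraries with a coefficient for each of 3 groups. P-values were adjusted by Benjamini-Hochberg over 12747 genes with a threshold of 0.05. The common biological coefficient of variation was 5.37%, and pairs of libraries of a group differed beyond sampling noise, with a chi-square of 3.5 to 4.34 for each degree of freedom. Gene length was CPM of the column total over FPKM, and lengths were whole to within 0.0429 bp. The length refit removed a lowess trend (span 0.3) of log2 CPM on log2 length per library, passed to edgeR as offsets. Alternatives used DESeq2 1.42.0 and limma 3.58.1 on log2(FPKM + 1) or log2(FPKM + 0.1), where pseudocounts understate changes of low genes. The edgeR fit with TMM factors, with and without offsets from the deposited lengths, was tried on simulated data for aged against young libraries. The DESeq2, limma and other settings were not tried on simulated data.

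Genes and lists were chosen with earlier results of these data known. Named were, per comparison, up to 6 higher and 6 lower of the 78 genes with the largest change among those that passed and had a mean of 5 CPM or more in either group, the 5 highest and 3 lowest by FPKM, paralogs and genes of another subunit than their symbol, and 2 genes of each of 3 lists of the large subunit per comparison. Of each other list up to 3 genes with the smallest p per comparison could be named. Nrf1, Esrra, Mrpl9, Mrpl28, Mrps9, Mrps6, Mrpl4, Mrpl46, Mrps11, Mrpl37 and the neighbouring genes were named after their values were seen. Positions are from GENCODE M21 on GRCm38, which held all 78 genes. Genes with a pseudogene named after them (3 of 78) could have lost reads in the authors' counting. Pseudogenes with other names were not searched for, so the same could hold for more of the genes.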

Additional observations from a re-analysis of the deposited data

How the results depend on the processing

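The direction of the median was kept for aged against young and for treated against aged libraries in all settings run, and its size and the number of genes called depended on scaling and length. For aged against young the median, -0.33, was -0.23 with upper-quartile factors (3 genes higher), -0.14 with library totals (4 higher, 40 lower), -0.31 with the 2 groups alone, -0.24 with length offsets (2 higher), -0.30 with offsets from GENCODE lengths, -0.12 on log2(FPKM + 1) with and without the filter (4 higher and 37 lower, or 36 lower without it) and -0.13 on log2(FPKM + 0.1) (4 and 37). For treated against aged it was 0.42 with upper-quartile factors, 0.16 with length offsets (38 higher, 6 lower), 0.27 with GENCODE lengths (2 lower) and 0.31 on log2(FPKM + 1) with and without the filter. For treated against young it was 0.17 with upper-quartile factors (44 higher, 8 lower), 0.18 with library totals (46 and 7), -0.12 with length offsets (10 and 35), -0.060 with GENCODE lengths, 0.17 on log2(FPKM + 1) (49 and 7, or 45 and 7 without the filter) and 0.18 on log2(FPKM + 0.1) (49 and 8). For FPKM without the filter the share of all genes that passed was not taken. The cause of the change with scaling was not tested beyond the shift of all tested genes given above.

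Leaving out 1 library at a time gave medians of -0.37 to -0.33, 0.34 to 0.37 and -0.02 to 0.02 in the 3 comparisons, in the order above, with 62 to 66 lower and 1 higher, 63 to 69 higher and 0 lower, and 15 to 19 higher and 14 to 18 lower. For these fits the share of all tested genes that passed was not taken, so the counts have no background beside them. The difference between the subunits (large minus small) ranged from -0.030 to 0.010, -0.041 to -0.0056 and -0.050 to 0.015. It turned positive for aged against young without aged library 1 (0.0078), aged library 3 (0.010) or young library 2 (0.0034), and was -0.00163 with GENCODE lengths. For treated against aged it turned to 0.042 with length offsets and to 0.021 without genes with overlapping exons, and for treated against young (-0.015) it was 0.016 and 0.015.

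Of 99 fold changes of 33 named genes, 5 that had passed in edgeR with TMM factors changed sign in some setting. Values that had not passed there were not counted, though some also changed sign. Mrpl49 with age, for example, ranged from -0.042 to 0.082 when single libraries were left out. Mrpl27 (aged against young, -0.16) was at 0.035 with library totals, 0.036 on log2(FPKM + 1) with and without the filter, 0.037 on log2(FPKM + 0.1) and 0.0074 with length offsets. Mrpl38 (treated against young, -0.16) was at 0.0049 with upper-quartile factors, 0.019 with library totals, and 0.018 on log2(FPKM + 1), with and without the filter, and on log2(FPKM + 0.1). With treatment Mrps18c turned to -0.19 and Mrps23 to -0.026 with length offsets, and Mrpl17 to -0.0010 with GENCODE lengths. Over all settings 35 of the 99 values lost their call with the sign kept, and 13 gained one. Of such calls 19 were lost with length offsets, 12 with library totals and 13 to 15 on FPKM. With upper-quartile factors or GENCODE lengths 7 each were lost, and with DESeq2 5. Calls of 8 named values were lost without single libraries. With treatment Mrpl17 was at 0.12 without aged library 2 or 3 or treated library 3 and 0.13 without treated library 2. Mrpl19 was at 0.17 without aged 2, 0.26 without aged 3, 0.21 without treated 1 and 0.18 without treated 3. Mrps18c was at 0.19 without aged 2 or treated 3 and 0.22 without treated 1, and Mrps23 at 0.12 without aged 1, 0.20 without aged 3 or treated 3 and 0.15 without treated 2. With age Mrpl22 was at -0.10 without aged 3 and -0.11 without young 2, and Mrpl27 at -0.16 without aged 1, -0.15 without aged 3 and -0.11 without young 1. In treated against young libraries Mrpl23 was at 0.19 without treated 3 or young 3 and 0.18 without young 2, and Mrps21 at 0.18 without treated 2.

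Replicate numbers did not pair the libraries: correlations of deviations were -0.061 to 0.020 between same-numbered and -0.041 to 0.045 between other libraries. With the replicate number as a block, counts were 1 higher and 65 lower, 69 higher and 0 lower, and 18 higher and 16 lower, and no call of a named gene changed. The share of all tested genes that passed was not taken with the block. The 3 libraries per group limit the precision.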
